A study of Danio rerio with 7 samples.

Results

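The genes described here encode the sliding clamp of DNA replication, pcna, and the subunits mcm4, mcm5, mcm6 and mcm7 of the MCM helicase. They were measured in whole zebrafish (Danio rerio) embryos after knockdown of tbx5, a T-box transcription factor of heart and fin development. Embryos of the AB strain received a translation-blocking tbx5 morpholino, and the comparison group was wild type (WT) without it. Each 2-colour array set pooled morphant RNA, labelled with Cy5, against WT RNA, labelled with Cy3, at 24 hpf (hours post fertilization, 2 arrays), 30 hpf (2 arrays) or 48 hpf (3 arrays). The deposited value is the log2 ratio of morphant over WT, so that a negative value is a lower level in morphants. Because the dyes were never swapped, a dye effect and the effect of the morpholino cannot be told apart. No array carried a control morpholino. Whether replicate arrays held RNA of different embryo pools is not stated in the labels, and every p-value measures only the spread between arrays, which may be technical. The values are ratios without the underlying intensities, so a level in either group could not be checked, and tissue markers could be read only as ratios between the groups. In RNA from whole embryos, fewer replicating cells and less of a transcript per cell cannot be told apart.

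MCM proteins form a ring of 6 related subunits that is loaded onto replication origins in G1 and unwinds DNA ahead of the fork in S phase. PCNA is a ring-shaped clamp that encircles DNA behind the helicase, tethers the replicative polymerases and recruits the enzymes that join Okazaki fragments. Transcripts of both are abundant in cycling cells, decline as cells leave the cycle, and are used as markers of proliferating zones in the embryo.

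Members were the probes whose symbol, or current symbol by Entrez Gene number, was pcna or mcm followed by a digit. The whole value table carried no gene names. A probe obtained its name only from the deposited lists of probes lower in morphants, with a log2 ratio of -0.584 or less on every array of a stage. Each list row was placed on the single table row with the same values. This gave 8 probes of 5 genes among 43663 probes, which became 43179 genes and single probes once probes of 1 gene were averaged. The lists named 3794 genes in all. The gene mcm3ap also met the letters of the rule, but it encodes an MCM3-associated protein and no subunit of the helicase, and it was kept apart. No probe of the subunits mcm2 and mcm3 was placed through these lists of lower probes, so their ratios are not described. Probe sequences were not used here.

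The way a probe obtained its name limits what its values can show. At the stage of the list that named it, a probe had to be low, and those values are given as a description without a test. At 24 hpf, 6 of the 8 probes were named through the 48 hpf list and can be read there. Of these, pcna A_15_P322966 stood on the 24 hpf list as well, so the 24 hpf test of pcna includes its low values. At 30 hpf all 8 can be read, because none of them stood on the 30 hpf list. At 48 hpf only 3 can, those that the 24 hpf list named. The values nearest the limit from inside were -0.61 for an mcm6 probe on the first 24 hpf array and -0.62 for mcm7 on the second 48 hpf array. Nearest from outside was a pcna probe at 24 hpf, with -0.74 on the first array and -0.55 on the second.

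At 24 and 48 hpf nearly every value of these genes was below 0, and at 30 hpf the genes lay on both sides of 0. Of 16 probe values at 24 hpf, 15 were below 0, as were 22 of 24 at 48 hpf and 7 of 16 at 30 hpf. Most 48 hpf values and some 24 hpf values belong to probes that the list of that stage had chosen for low values. By stage mean, which includes those chosen values, 8 of the 8 probes were below 0 at 24 hpf, 4 at 30 hpf and 8 at 48 hpf. Over all probes, 50.4% had a mean below 0 at 24 hpf, and the share was the same at 30 and 48 hpf. The 5 gene means ran from -1.77 to -0.36 at 24 hpf, from -0.33 to 0.72 at 30 hpf and from -1.23 to -0.48 at 48 hpf. At 30 hpf, pcna had a mean log2 ratio of -0.33, whereas mcm6 and mcm7 had means of 0.45 and 0.72. For 8 means the stage's own list was not needed to name the gene's probes. None of the 8 passed limma's moderated test, with p-values adjusted by Benjamini-Hochberg across all 43179 features. The 8 include pcna at 24 hpf, although its probe A_15_P322966 also stood on the 24 hpf list.

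**Figure D1:**
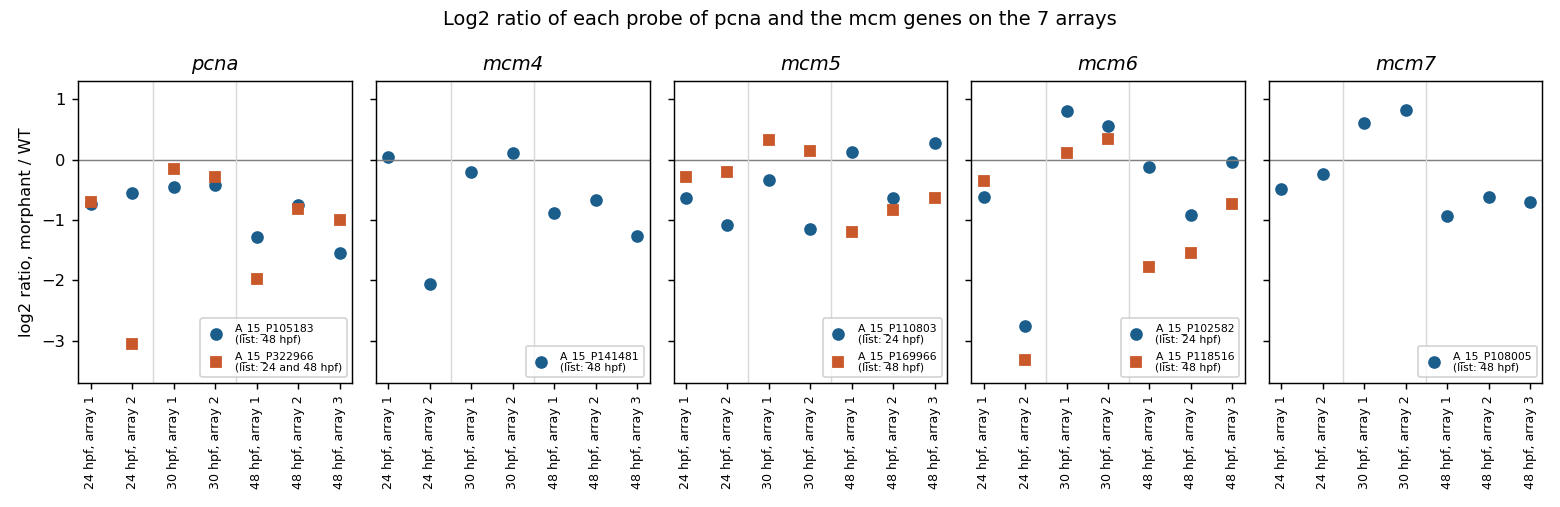
Log2 ratio of morphant over WT (vertical axis) of each of the 8 probes on each of the 7 arrays (horizontal axis, by stage), 1 panel per gene, with the list that named each probe in the key. Values at 30 hpf lie between -1.15 and 0.83, and on the second 24 hpf array 1 pcna probe and both mcm6 probes lie near or below -2.77.

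The sliding clamp, pcna, was covered by a pair of probes. Probe A_15_P322966, a 60-base interval at chr10:36877735-36877794 on the minus strand, stood on the 24 and the 48 hpf lists. Probe A_15_P105183 was named through the 48 hpf list alone and spans chr10:36876978-36877699 on the same strand, 722 bases in the list. These positions are those of the lists, in which unplaced scaffolds carry the prefix Zv7.

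At 24 hpf the log2 ratio of A_15_P105183 was -0.74 on the first array and -0.55 on the second. That of A_15_P322966, which also stood on the 24 hpf list and so could not be above -0.584, was -0.70 and -3.05. On the first array the probes differed by 0.04, and on the second by 2.50, the widest gap between them over the 7 arrays. Averaged over both probes, pcna was -0.72 and -1.80 on the 24 hpf arrays, with a mean of -1.26 ± 0.76 (SD, n = 2), which is 2.39-fold lower in morphants. Each probe was below 0 on both arrays, but the gene did not pass (limma adjusted p = 0.368, 95% confidence interval of the log2 ratio -2.23 to -0.29). Over all genes and single probes, 0.0301% passed at 24 hpf.

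At 30 hpf both pcna probes were slightly below 0 on both arrays. A_15_P105183 had log2 ratios of -0.45 and -0.42, and A_15_P322966 had -0.16 and -0.29. The gene mean was -0.33 ± 0.03 (SD, n = 2), and it did not pass (limma adjusted p = 0.905, interval -1.30 to 0.64). On the first 30 hpf array 27.0% of all probes were lower than A_15_P105183 and 40.8% were lower than A_15_P322966, so neither stood at an edge of its array.

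At 48 hpf, where both probes were chosen for low values, A_15_P105183 had -1.29, -0.75 and -1.55. A_15_P322966, named through the 24 hpf list as well, had -1.98, -0.82 and -0.998. The 24 hpf list alone would have named it, but its place on the 48 hpf list required all 3 values to be -0.584 or less. On the first 48 hpf array only 0.605% of all probes were lower than this probe. The gene mean was -1.23 ± 0.43 (SD, n = 3). Across the 7 arrays the pair had a Pearson r of 0.20, and both probes were below 0 on every array.

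Subunit mcm4 belongs to the catalytic core of the helicase ring. Its only probe, A_15_P141481 at chr24:33104389-33104448 on the plus strand, was named through the 48 hpf list. It gave 0.04 on the first 24 hpf array and -2.06 on the second, so the arrays of this stage did not share a direction. The mean at 24 hpf was -1.01 ± 1.49 (SD, n = 2; limma adjusted p = 0.486), and it rested on the second array alone. At 30 hpf the values were -0.21 and 0.10, around a mean of -0.05 ± 0.22 (limma adjusted p = 0.994, interval -1.28 to 1.18). At 48 hpf, the stage that chose the probe, it gave -0.89, -0.68 and -1.27.

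Subunit mcm7 pairs with mcm4 in the ring. Probe A_15_P108005 lies at chr14:55788409-55788468 on the plus strand and was also named through the 48 hpf list. Its values at 24 hpf were -0.48 and -0.24, both modestly below 0 (mean -0.36 ± 0.17, SD, n = 2; limma adjusted p = 0.723). At 30 hpf they were 0.61 and 0.83, and here 80.8% and 84.5% of all probes were lower than mcm7. The mean of 0.72 ± 0.15 (SD, n = 2), 1.64-fold higher in morphants, was the highest mean of the 5 genes at any stage and did not pass (limma adjusted p = 0.634, interval -0.07 to 1.5). At 48 hpf it gave -0.93, -0.62 and -0.71. The pair of 30 hpf values was above every value of the other stages.

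Subunit mcm6 was covered by a pair of probes with a Pearson r of 0.89 over the arrays and the same side of 0 on all 7. Both were lowest on the second 24 hpf array, and r without that array was not computed. Their widest gap was 1.65, on the first 48 hpf array. A_15_P102582, named through the 24 hpf list, spans chr6:12081181-12082076, and A_15_P118516, named through the 48 hpf list, lies at chr6:12091786-12091845, both on the plus strand. At 24 hpf, A_15_P118516 gave -0.36 on the first array and -3.32 on the second, where only 0.621% of all probes were lower. A_15_P102582 gave -0.61 and -2.77, values that chose it.

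At 30 hpf both mcm6 probes were above 0 on both arrays, with 0.81 and 0.55 for A_15_P102582 and 0.11 and 0.34 for A_15_P118516. The gene mean was 0.45 ± 0.01 (SD, n = 2; limma adjusted p = 0.911, interval -0.96 to 1.86). At 48 hpf, A_15_P102582, which the 24 hpf list had named, gave -0.12, -0.92 and -0.04, so that its low value rested on the second array. A_15_P118516, chosen at this stage, gave -1.77, -1.54 and -0.74. The first 24 hpf value of A_15_P102582 was shared by 21 probes of that array and the second by 8.

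Subunit mcm5 had a pair of probes that disagreed. They lie 229 bases apart on the minus strand of the unplaced scaffold Zv7_NA156, A_15_P110803 from base 21775 to 21834 and A_15_P169966 from base 22004 to 22063. Over the 7 arrays their Pearson r was -0.55, and they fell on the same side of 0 on 3 of them. At 24 hpf, A_15_P169966, named through the 48 hpf list, gave -0.29 and -0.20, while A_15_P110803, which this stage chose, gave -0.64 and -1.08.

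At 30 hpf, A_15_P110803 gave -0.34 and -1.15, whereas A_15_P169966 gave 0.32 and 0.14. The gene mean of -0.26 ± 0.36 (SD, n = 2; limma adjusted p = 0.915) therefore averaged probes of opposite sign, and A_15_P169966 alone had a mean of 0.23. At 48 hpf the order turned. A_15_P110803, named through the 24 hpf list, gave 0.13, -0.64 and 0.27, and A_15_P169966, chosen at 48 hpf, gave -1.20, -0.83 and -0.63. The position of mcm5 among these genes is uncertain for this reason.

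**Figure D2:**
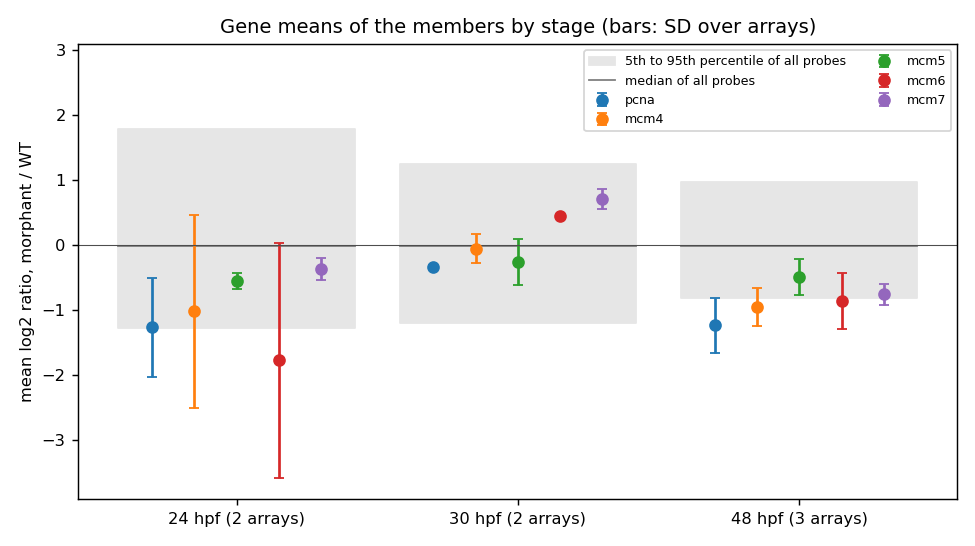
Mean log2 ratio of each of the 5 genes (points, bars are the SD over the arrays of a stage) at 24, 30 and 48 hpf, over the 5th to 95th percentile (grey) and the median (line) of the same mean over all 43663 probes. The bars of mcm4 and mcm6 at 24 hpf span 1.49 and 1.81 on either side, and at 30 hpf all 5 genes lie inside the grey band of -1.20 to 1.26.

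Read against other probes, the members stood low at 24 hpf and not at 30 hpf, and how low they stood at 24 hpf depended on the array. The median of the 8 probes was -0.55 on the first 24 hpf array and -1.57 on the second. The 5-gene median at this stage was -1.01 over both arrays, -0.48 without the second and -1.80 without the first. Both medians are in part built in. They include mcm5 A_15_P110803 and mcm6 A_15_P102582, which only the 24 hpf list named, and pcna A_15_P322966, which it held as well. At 24 hpf, 5 of the 6 probes named through the 48 hpf list were below 0 on both arrays. This held for 27.6% of all probes and for 37.3% of those named through a list of another stage. Their median of mean log2 ratios was -0.83, beside -0.01 over all probes and -0.18 over those named through another stage. In the mean, 4 of the 6 were at least 1.5-fold lower, against 20.8% of all probes and 29.5% of the latter. Of the 6 probes, 1 was that low on each array, pcna A_15_P322966 of the 24 hpf list. The shares were 7.71% of all probes and 12.5% of those named through another stage.

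At 30 hpf, 4 of the 8 probes were above 0 on both arrays, and 3 were below 0 on both. The shares were 26.4% and 29.1% of all probes, and 25.9% and 37.8% of those named through another stage. The median of the 8 probes was 0.09, beside -0.01 over all probes and -0.13 over those named through another stage. Of all genes and single probes, 0.00695% passed limma's test at this stage, and no member was among them.

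At 48 hpf, 2 of the 3 probes named through the 24 hpf list, pcna A_15_P322966 and mcm6 A_15_P102582, were below 0 on all 3 arrays, beside 18.1% of all probes and 25.1% of those named through another stage. The share of all genes and single probes that passed limma's test at 48 hpf was 0%, and 5.59% had an unadjusted p under 0.05. With 3 readable probes, of which 1 is also on the 48 hpf list, the 48 hpf values remain mainly a description of how the members were chosen.

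The order of the genes differed by stage. From the lowest mean, it was mcm6, pcna, mcm4, mcm5 and mcm7 at 24 hpf, then pcna, mcm5, mcm4, mcm6 and mcm7 at 30 hpf, and pcna, mcm4, mcm6, mcm7 and mcm5 at 48 hpf. At 24 hpf the ranges of array values of every pair of neighbours in this order overlapped. At 30 hpf the range of mcm5 overlapped those of pcna and mcm4, which did not overlap each other. Those of mcm6, at 0.46 and 0.45, and mcm7, at 0.61 and 0.83, lay above all the others and did not overlap each other. At 48 hpf the ranges of neighbours again overlapped. The 24 and 48 hpf orders are in part built in, because some probes were chosen for low values at that stage and others were not. At 48 hpf, mcm5 A_15_P110803 and mcm6 A_15_P102582 were not so chosen and had means of -0.08 and -0.36. The other probes of these genes were chosen there and had means of -0.89 and -1.35.

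Between 24 and 30 hpf, limma's contrast could be read for mcm4 and mcm7, and neither passed after adjustment. For mcm7 the mean at 30 hpf was 1.08 above that at 24 hpf (95% confidence interval -0.03 to 2.19, limma adjusted p = 0.615), and for mcm4 the difference was 0.96 (interval -0.78 to 2.71, adjusted p = 0.696). These are the genes whose single probe was chosen at neither stage. Over all genes and single probes, 0.00232% passed this contrast. From 30 to 48 hpf the difference for mcm7 was -1.47, and no test is given because the 48 hpf values chose the probe. For the contrast of 48 with 30 hpf, 0% of all genes and single probes passed (7.20% at an unadjusted p under 0.05).

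The difference between 30 and 48 hpf also ran along a feature of the array names. In the lists, names begin with 1 of 2 numbers that read as days. What these numbers stand for is not stated in the sources, and day is used here only as a label for them. The first 24 hpf array and both 30 hpf arrays carried the first, and the second 24 hpf array and all 3 48 hpf arrays carried the second. On the first day the mean of the 4 mcm genes was -0.35 at 24 hpf and then 0.21 and 0.22 at 30 hpf. On the second day it was -1.5 at 24 hpf and then -0.83, -0.82 and -0.63 at 48 hpf. All 4 arrays of the second day were thus below all 3 of the first. Most mcm probes were chosen for low values on the 48 hpf arrays, so this separation is in part built in.

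**Figure D3:**
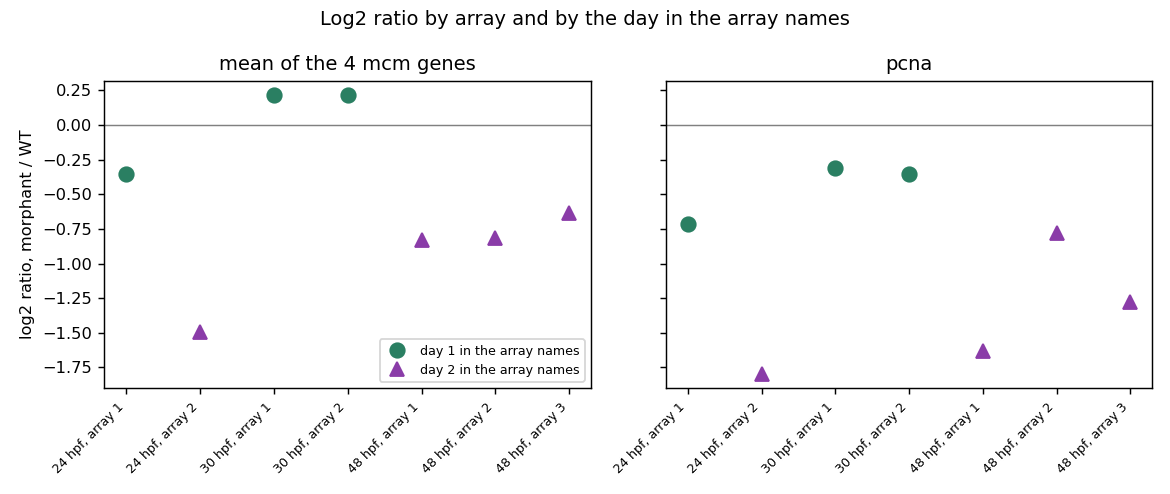
Mean log2 ratio of the 4 mcm genes (left) and log2 ratio of pcna (right) on each of the 7 arrays (horizontal axis), marked by the day read from the array names. The arrays of the second day (triangles) lie between -1.5 and -0.63 for the mcm genes, and those of the first (circles) between -0.35 and 0.22.

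Within a day, the later stage was higher than 24 hpf for the mcm mean, by 0.57 from 24 to 30 hpf on the first day and by 0.74 from 24 to 48 hpf on the second. For pcna the corresponding differences were 0.39 and 0.57. For mcm7 they had opposite signs, 1.20 on the first day and -0.51 on the second. Those of mcm4 also had opposite signs, but the other way round, with -0.09 on the first day and 1.12 on the second. For mcm6 they were 0.94 and 2.19, and for mcm5 0.21 and 0.16. The differences of the mcm mean and of pcna are in part built in. At 24 hpf, mcm5 A_15_P110803, mcm6 A_15_P102582 and pcna A_15_P322966 had to be low to stand on that stage's list. On the second day most probes were chosen for low 48 hpf values as well. With the day as a block in the fit, the 5-gene median at 30 hpf was -0.82 in place of -0.05 and at 48 hpf -0.39 in place of -0.86. In this fit mcm6 turned to -0.82 at 30 hpf and 0.42 at 48 hpf, and mcm4 to 0.11 at 48 hpf, whereas mcm7 stayed above 0 at 30 hpf, at 0.84. The 24 hpf means were not moved. Only the pair of 24 hpf arrays links the days, so stage and day cannot be told apart for 30 against 48 hpf without relying on those arrays. For both mcm6 probes, 1 pcna probe and mcm4 those arrays were far apart.

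Many deposited ratios recur on several probes of an array. Of the 56 values of the members, 49 were found on no other probe of that array. Over all probes, 10.2% to 27.0% of the values of an array were found once. In a fit of the 1909 genes and single probes found once on every array, which kept both pcna probes, mcm4, mcm5 A_15_P169966, mcm6 A_15_P118516 and mcm7, mcm7 at 30 hpf had an adjusted p of 0.138 in limma, with 0.943% of that set passing. For pcna at 24 hpf it was 0.0869, with 0.367% passing. That pcna mean includes A_15_P322966, which the 24 hpf list held for low values, so its p-value is not free of the choice. Probe A_15_P105183, not on that list, had a 24 hpf mean of -0.64 in the fit of all 43663 single probes. It did not pass there (limma adjusted p = 0.510, interval -1.49 to 0.20). Over probes found once, arrays of 1 stage correlated with a Pearson r of 0.69 at 30 hpf and 0.69 to 0.71 at 48 hpf, but 0.20 at 24 hpf. The arrays of 30 hpf share a day in their names, as do those of 48 hpf, whereas the 24 hpf arrays do not. The first 24 hpf array had an r of 0.30 and 0.40 with the 30 hpf arrays of its day. The second had -0.18 to -0.09 with the 48 hpf arrays of its day. Over all probes, which the main test uses, r was 0.072 at 24 hpf, 0.10 at 30 hpf and 0.074 to 0.14 at 48 hpf.

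Over the 7 arrays the Pearson r of pcna with the mean of the 4 mcm genes was 0.90, and 1.5% of the genes named through any list had a higher r. Both pcna and the mcm genes were chosen partly for low 48 and 24 hpf values, so that this likeness is in part built in. The named genes most like the mcm mean were ndufa4l2a (r = 0.99), zgc:153018 (0.98), mark2a (0.98), hjv (0.98) and mapk14a (0.97), of 3789 ranked. Each was named through the 48 hpf list, and mark2a and mapk14a through the 24 hpf list as well, so that low values at 48 hpf are shared by construction. At 24 hpf ndufa4l2a had log2 ratios of -0.44 and -2.19. Its 30 hpf values were 0.64 and 0.79, and its 48 hpf values -0.86, -0.73 and -0.85. These values show the same high 30 hpf arrays and the same low second 24 hpf array as the mcm mean. This likeness also follows from the choice, because the gene was picked for its correlation over these same 7 arrays.

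Other replication genes were described from 8 lists by role, of which 25 of 110 genes were placed through the lower lists. Counts and shares cover genes named through a list of another stage, also where the stage's own list held them as well. At 24 hpf that list held pola2, rnaseh2c, rrm2 and uhrf1. At 30 hpf it held rpa3, slbp and a probe of rfc5, and at 48 hpf pola2, rnaseh2c, rpa3, rrm2, uhrf1 and slbp. Their low values at these stages were thus chosen, and the counts and medians include them. At 24 hpf, 13 of 15 had a mean below 0 (60.7% of all such genes), with a median of -0.51. At 30 hpf it was 15 of 20 (56.8%), with a median of -0.25, and at 48 hpf 17 of 21 (56.1%), with a median of -0.71. The medians of all named genes so read were -0.15, -0.10 and -0.07. No gene of the lists passed limma's test at these stages.

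**Figure D4:**
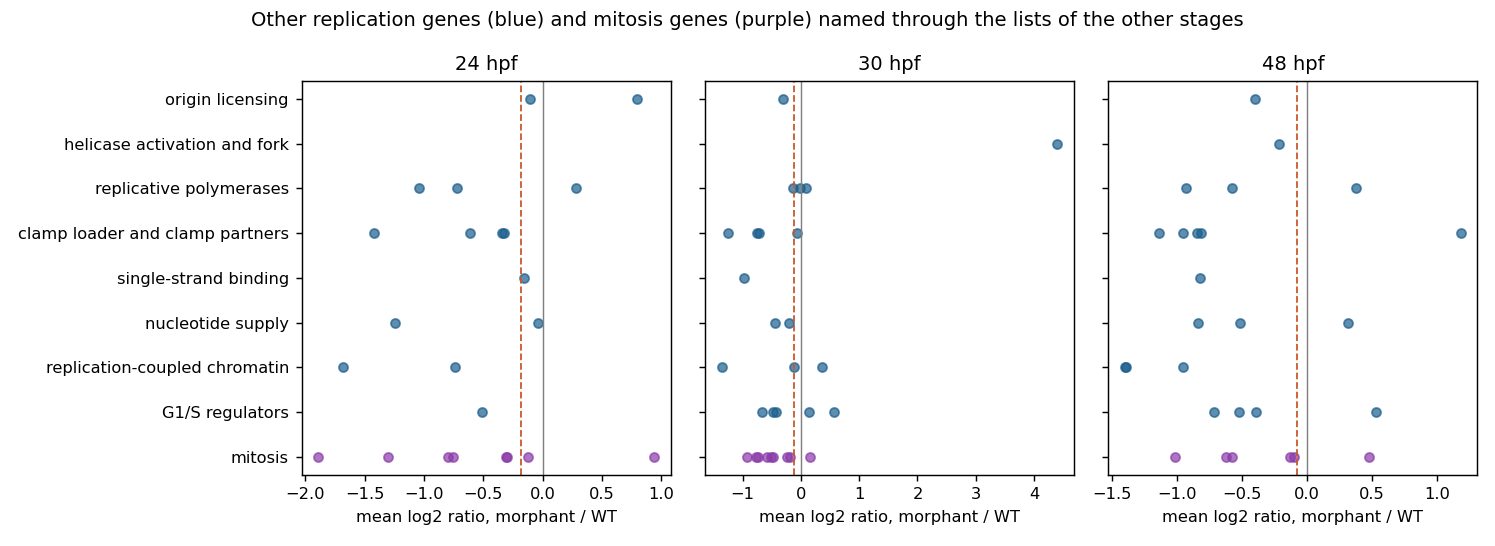
Mean log2 ratio (horizontal axis) of each other replication gene (blue) and mitosis gene (purple) by list, at the stages where it was named through a list of another stage. Genes that the stage's own list held as well are included. The solid line marks 0 and the dashed line the median of all probes so named (-0.18, -0.13 and -0.08), and the point at 4.40 at 30 hpf is tipin.

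Of the clamp loader and clamp partner genes, 4 could be read at 30 hpf. All 4 had a mean below 0 (56.8% of all such genes), with a median of -0.73, but only 2 were below 0 on both arrays (35.8%). Of these 2, rfc5, at -2.03 and -0.48, had a probe that also stood on the 30 hpf list. Its low mean is thus in part built in, and the counts and the median include it. The catalytic RNase H2 subunit rnaseh2a, which helps to remove RNA primers, gave -0.49 and -1.01. The clamp loader subunit rfc3 gave 0.16 and -1.59, so that its arrays differed in sign. The DNA ligase lig1, which seals Okazaki fragments, was chosen at 30 hpf and gave -1.07, -0.54 and -0.83 at 48 hpf. The small subunit chtf8 of an alternative clamp loader gave 0.22, 0.34 and 2.97 there, the only gene of this list above 0 on all 3 arrays.

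Closest to the helicase itself was mcmbp, an MCM-binding protein, with -0.47 and 0.27 on the 24 hpf arrays, then -0.05 and -0.55 on the 30 hpf arrays. It was thus not above 0 on the 30 hpf arrays, unlike mcm6 and mcm7. The fork protein tipin gave 8.99 on the first 30 hpf array and -0.20 on the second, and the mean of 4.40 rests on that single value. The polymerase epsilon subunit pole2, chosen at 24 hpf, gave 0.24 and -0.08 at 30 hpf. Its values at 48 hpf were -0.54, -0.33 and -0.86.

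Few other replication genes were above 0 on both 30 hpf arrays, as mcm6 and mcm7 were. These were 2 of the 20 genes, uhrf1 and rb1, beside 26.6% of all genes so named. The 20 include rpa3, slbp and rfc5, of which the 30 hpf list also held probes for low values. The DNA methylation cofactor uhrf1, which acts on newly replicated DNA, gave 0.20 and 0.52. The retinoblastoma gene rb1, which restrains entry into S phase, gave 0.54 and 0.59, against -1.08, -0.46 and -0.60 later at 48 hpf. The histone chaperone gene asf1ba did not keep 1 sign at 30 hpf, with 0.31 and -0.54. At 48 hpf, cdkn1bb, which encodes an inhibitor of cyclin-dependent kinases, gave 0.52, 0.46 and 0.61. Of all genes so named, 17.8% were above 0 on every array of that stage. The sign of cdkn1bb was opposite to that of pcna and of the mcm genes apart from mcm5 A_15_P110803. Most probes of these genes were chosen for low 48 hpf values, so that the contrast is in part built in. At 30 hpf cdkn1bb gave -0.33 and -0.64, below 0 like pcna.

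Genes of mitosis were read the same way, with 12 of 36 placed. At 24 hpf 7 of 8 had a mean below 0 (median -0.53), beside 60.7% of all genes so named. At 30 hpf it was 8 of 9 (median -0.52), beside 56.8%, and at 48 hpf 5 of 6 (median -0.36), beside 56.1%. The 24 and 48 hpf counts include aurka, which the lists of both stages held, so its low means there are built in. The spindle checkpoint gene mad2l1 was the 1 gene with a positive mean at 24 hpf, at 0.58 and 1.29. At 30 hpf the mitosis genes and the members thus had medians of -0.52 and -0.05, a difference that was not tested.

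The MCM3-associated gene mcm3ap, kept apart from the members, was chosen at 24 hpf with -1.28 and -1.47. Its later values were 0.73 and 0.50 (30 hpf), then 0.30, -0.52 and -0.35 (48 hpf), and so it was above 0 on both 30 hpf arrays like mcm6 and mcm7.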

How the data were processed

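The authors hybridised Cy5-labelled RNA of tbx5 morphants and Cy3-labelled RNA of WT embryos to Agilent zebrafish 4x44K arrays, scanned them on a GenePix scanner and normalised them in GeneSpring GX. The normalisation steps, like the genome build, stand as not given in the sources used here. In the files, deposited values are log2 ratios per probe, in a table of 43663 probes without gene names, and in 3 lists of probes at or below -0.584 on every array of a stage. Of 6740 listed probes, 6662 were placed on the 1 table row with the same values. Current symbols came from RefSeq by Entrez Gene number, for 3962 of 4317 listed probes with a symbol. A probe whose Entrez number is that of kif20a but whose symbol and accession name another gene was not used.

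Deposited values were used without further scaling, and probes of 1 gene were averaged. Every array had a median between -0.03 and 0.01. Stage means and differences were tested with limma 3.58.1 in R 4.3.3 (lmFit and eBayes, all 7 arrays, 1 mean per stage), adjusted by Benjamini-Hochberg over 43179 genes and single probes, with a threshold of 0.05. Figures were drawn with matplotlib 3.10.9. The scripts were tested on simulated data. Without intensities the depth of signal is unknown, and the number of arrays limits the precision. A value found on many probes of an array was treated as a sign of a dim probe in alternative fits.

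Named genes were every member, for each gene list up to 12 in all from the lowest and highest means at stages whose own list does not hold the gene, and the 5 named genes most correlated with the mcm mean. Genes of the gene lists that a stage's own list also held are named besides. The members and gene lists were chosen with earlier results of these data known. Alternatives covered array scaling, the samples in the fit, moderation, the replicate number and the day in the array names as blocks, single probes, recurring values, ranks and leaving out each array.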

Additional observations from a re-analysis of the deposited data

Results flagged for a closer look

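The genes mcm6 and mcm7 had values of one sign on every array of one stage and of the opposite sign on every array of the next. For mcm6 the mean at 30 hpf was 2.22 log2 units above that at 24 hpf, and from 30 to 48 hpf the difference was -1.31. For mcm7 the differences were 1.08 and -1.47. Only the first difference of mcm7 was untouched by the choice of probes, and it did not pass limma's contrast (adjusted p = 0.615). The other differences include stages that chose a probe of the gene, and they are given without a test. Among all probes, 26.4% were above 0 on both 30 hpf arrays. That share covers 30 hpf alone, and the share of probes with such a change of sign between stages is not given here. The first 24 hpf array shares the day in its name with both 30 hpf arrays, and within that day the 30 hpf mean was higher by 0.94 for mcm6 and by 1.20 for mcm7. For mcm6 the 24 hpf value includes A_15_P102582, which the 24 hpf list chose. With the day as a block, the 30 hpf value was -0.82 for mcm6 and 0.84 for mcm7. No stage had the 4 arrays needed to look for an outlying array.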

How the results depend on the processing

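No member passed the adjusted threshold at a stage that had not chosen any of its probes, under any alternative run. Among stage means the threshold was crossed only in values that had chosen a probe of the gene, which are no test. These were mcm6 at 24 hpf, with the day as a block or without the first 24 hpf array, and pcna and mcm5 at 48 hpf over values found once. Over the latter the difference of mcm7 between 30 and 48 hpf crossed it too, with the same limit. Directions turned as follows. With the day as a block, mcm4 at 48 hpf was 0.11, mcm6 at 30 hpf -0.82 and mcm6 at 48 hpf 0.42. The 5-gene median at 30 hpf was then -0.82, and at 48 hpf -0.39. That median at 30 hpf, -0.05 as reported, was 0.089 over single probes and 0.23 over values found once, and mcm5 at 30 hpf was 0.23 from A_15_P169966 alone, also over values found once. Leaving out each array in turn gave 30 hpf medians from -0.051 to 0.10, the highest without the first 30 hpf array. At 30 hpf mcm4 ran from -0.21 without the second 30 hpf array to 0.10 without the first, and at 24 hpf mcm4 ran from -2.06 without the first 24 hpf array to 0.037 without the second. The 24 hpf median ran from -1.80 to -0.48 with 1 array of that stage left out. It includes probes that the 24 hpf list chose for low values. The median at 48 hpf was -0.99 with arrays scaled to one median absolute deviation and -1.12 with normal scores of ranks. The count passing over all genes and single probes was, as reported, 13 at 24 hpf, 3 at 30 hpf, 0 at 48 hpf, 0 for 48 minus 30 hpf and 1 for 30 minus 24 hpf. It was 8, 1 and 0 (24 hpf, 30 hpf and 30 minus 24 hpf) with the scaling named, and 0 for all of these with normal scores. Each stage fitted alone gave 0 at 24 and 30 hpf. The day block gave 1962, 325, 553, 808 and 962 in the order of the reported counts. Values shared by at most 10 probes gave 164, 6, 49, 59 and 0 of 6761 genes and single probes. Values found once gave 7, 18, 134, 157 and 0 of 1909. The reported counts are of 43179, so the counts of these 2 smaller sets are not on the same scale. At an unadjusted p under 0.05 there were 5204, 3538 and 2412 at the 3 stages. Leaving out each array gave 1 to 1540 at 24 hpf, 0 to 401 at 30 hpf, 0 to 294 for 48 minus 30 hpf and 0 to 962 for 30 minus 24 hpf. Where 1 array of a stage remained, it was assumed to vary like the other stages. Replicate numbers did not pair the arrays (correlations of deviations from the stage means of -0.0095 to 0.020), and the replicate block gave 0 at 24 hpf, 0 at 30 hpf and 0 for 30 minus 24 hpf. These numbers are those of the sample titles. The second 24 hpf array carries the number 3 in its array name in the list, and a pairing by that number was not tested.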
